A study of Mus musculus with 2 samples.

Results

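The cells described here are astrocytes whose RNA is richer in Thbs4, Sfrp1 and Tnc than in the genes of mature parenchymal astrocytes, called germinal-zone-like astrocytes below, and members for short. They numbered 798 among 14265 filtered cells, 198 from N-PRα-KO and 600 from WT. A cell was kept when 300 genes or more were detected and mitochondrial genes held no more than 25% of its UMIs (unique molecular identifiers, each marking 1 captured RNA molecule). It was taken as an astrocyte when Slc1a2, Slc1a3, Aldoc and Gja1 together held at least 0.3% of its UMIs, provided that Ccdc153, Tmem212 and Dynlrb2 (ependymal genes) held under 0.1%, Col1a1, Col1a2 and Col3a1 (fibroblast genes) under 0.4%, and Lhfpl3, Tnr, Cacng4, Olig1 and Sox10 (oligodendrocyte precursor genes) under 0.2%. Such a cell was germinal-zone-like when the sum of its Thbs4, Sfrp1 and Tnc UMIs was greater than the sum of its Aqp4, Slc6a11 and Slc4a4 UMIs, and parenchymal when it was smaller. The members were thus chosen by their own UMI counts of these genes, and the levels of the genes of the rule are a description with no test.

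The N-PRα-KO library came from mice of genotype Nestin-Cre;Pdgfraflox/flox, in which the Nestin promoter drives Cre in the neural lineage and Pdgfra is floxed. The WT library came from C57BL/6J mice, and no control with Cre or the floxed allele alone is among the samples. In both, the cortex was dissociated together with its meninges, and cells were pulled down with magnetic beads against CD140a, the protein that Pdgfra encodes, before capture on the BD Rhapsody system. There was 1 library per genotype, and neither the ages nor the sexes of the mice, nor how many were pooled, are in the labels. A difference between the libraries therefore cannot be told apart from a difference in animals, age, sex, preparation or pipeline version, and no test between genotypes was possible. Intervals in brackets are 95% intervals for counting error only.

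In the adult forebrain, astrocyte-like cells that line the lateral ventricle keep features of radial glia and act as neural stem cells, which pass through a stage of dividing progenitors. Thbs4 encodes a secreted thrombospondin of the extracellular matrix, known from astrocytes of the subventricular zone and of the stream of neuroblasts that leads to the olfactory bulb. Sfrp1 encodes a secreted antagonist of Wnt ligands, and Tnc encodes tenascin-C, a matrix glycoprotein of germinal zones and of radial glia. Parenchymal astrocytes, by contrast, carry the water channel Aqp4 on their endfeet, the GABA transporter Slc6a11 and the bicarbonate transporter Slc4a4.

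The 198 N-PRα-KO members held 927860 UMIs, a median of 4240.0 per cell (1535 to 15820.0) over 2051.5 genes, and the 600 WT members held 1939452 UMIs, a median of 2773 per cell (408 to 15470.0) over 1525 genes. Parenchymal astrocytes, 527 and 1235 cells, were deeper in both libraries, at medians of 5364 and 3704 UMIs. The libraries shared 105 barcodes, and none of these was a member in both. The doublet caller Scrublet marked 0 of the 198 N-PRα-KO members, which allows a share of up to 1.52%, and 9 of the 600 WT members (1.5%, 0.688 to 2.83). In all it marked 0.238% of the 4196 filtered cells in N-PRα-KO and 1.73% of the 10069 in WT, and its calls were kept except in an alternative.

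Thbs4, on the minus strand of chromosome 13 (92751590 to 92794818, GRCm38), had the largest excess over parenchymal astrocytes of the genes measured, ranked by the smaller of the ratios of the libraries. Its level in the members was 1012 (948 to 1079) CPM (UMIs of the gene per 1e6 UMIs of the class) in N-PRα-KO and 398 (370.5 to 427) CPM in WT. Parenchymal astrocytes had 24.5 and 16.1 CPM, and no other cell class went above 16.6 CPM, the level in N-PRα-KO choroid plexus cells. Sfrp1, on the plus strand of chromosome 8 (23411502 to 23449632), stood at 1313 (1240.0 to 1389) CPM in N-PRα-KO and 1696 (1639 to 1755) CPM in WT members, against 46.7 and 88.9 CPM in parenchymal astrocytes. It was also measured in other cells, at 247 CPM in WT fibroblasts, 246 CPM in N-PRα-KO choroid plexus cells, and 189.6 and 199 CPM in the ependymal cells of the N-PRα-KO and WT libraries.

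Tnc, on the minus strand of chromosome 4 (63959785 to 64047015), divided the 2 astrocyte classes far less. Its level was 163 (138 to 191) CPM in N-PRα-KO members and 95.7 CPM in N-PRα-KO parenchymal astrocytes, and 595 (561 to 630.4) and 354 CPM in the WT classes. Slc1a3, the glutamate transporter GLAST of radial glia and astrocytes, was high in both classes and slightly lower in the members, at 5868 against 6929.6 CPM and 6246 against 9666 CPM. These are levels of genes the rule used, and they describe the split without supporting it. On the other side of the rule, Aqp4 was at 182 and 336 CPM in the members and at 1682 and 2881 CPM in parenchymal astrocytes.

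**Figure D1:**
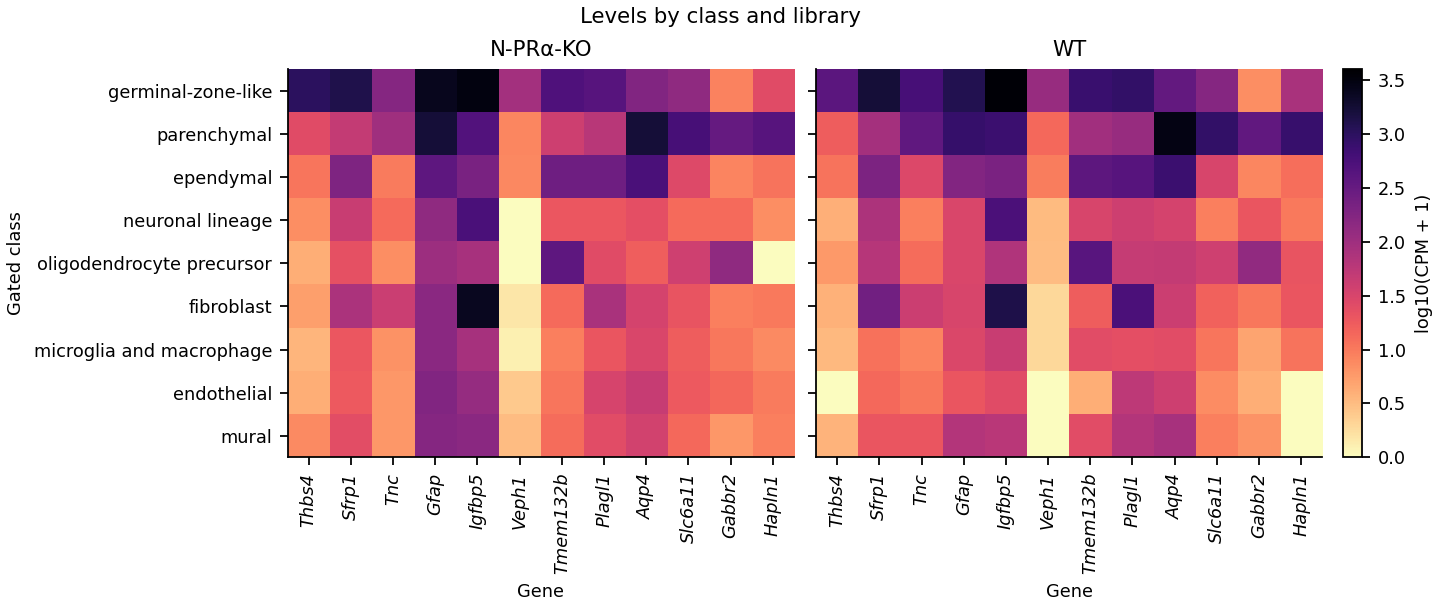
Levels, as log10(CPM + 1) of summed UMIs, of 12 genes (columns) in 9 gated cell classes (rows) in the N-PRα-KO and the WT library. Thbs4 was dark only in the germinal-zone-like row, Veph1 was close to that pattern, and Igfbp5, Tmem132b and Plagl1 were also high in at least 1 class outside the astrocytes.

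The rule placed most members well inside its boundary. The Thbs4, Sfrp1 and Tnc sum led the opposing sum by a median of 7 UMIs in the N-PRα-KO and 5 UMIs in the WT members, and by 3 or more in 162 (81.8%) and 431 (71.8%) of them. Just inside the boundary, with a lead of 1 UMI, lay 19 N-PRα-KO and 88 WT members, with medians of 2 against 1 and 3 against 2 UMIs in the opposing sums. Just outside lay 24 and 78 parenchymal cells at a deficit of 1 UMI, with medians of 1 against 2 UMIs in both libraries, and a further 32 and 109 cells were tied and belonged to neither class.

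Single members differed in which of the 3 genes they showed. A Thbs4 UMI was found in 79.8% (73.5 to 85.2) of N-PRα-KO and 46.8% (42.8 to 50.9) of WT members, and after thinning every cell to 2000 UMIs in 70.3% and 41.1%. In microglia and macrophages, which should lack the gene, the share was 1.53% and 0.754% at median depths of 5686.5 and 2791 UMIs. The Sfrp1 share was 85.9% in N-PRα-KO and 91.5% in WT members (78.5% and 87.1% thinned), and the Tnc share 41.9% and 68.2% (25.6% and 59.6% thinned). Thinning left out 3 and 135 shallower members. In thinned cells the median member had 2 Thbs4 UMIs in N-PRα-KO (at most 11) and 0 in WT (at most 7). Sfrp1 was the most widespread of the 3 in both libraries, and the Thbs4 share was higher in N-PRα-KO and the Tnc share in WT members. Both Thbs4 and Sfrp1 were seen in 67.2% of N-PRα-KO and 43.5% of WT members. Sfrp1 without Thbs4 was seen in 18.7% and 48.0%, and only 3 N-PRα-KO and 31 WT members entered on Tnc alone.

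The members made up 4.72% (4.10 to 5.40) of the filtered N-PRα-KO cells and 5.96% (5.50 to 6.44) of the filtered WT cells. Among the astrocytes of both classes they were 27.3% (24.1 to 30.7) and 32.7% (30.6 to 34.9). Both libraries held cells pulled down by CD140a, so these are shares of sorted cells and not of the cortex. The oligodendrocyte precursor class held 4887 WT cells and 52 N-PRα-KO cells, a difference that enters the denominator of the first share.

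The limit on mitochondrial UMIs removed the 2 astrocyte classes very unequally. Of barcodes that met the rest of the rule, 20 of 218 germinal-zone-like barcodes (9.17%, 5.69 to 13.8) exceeded it in the N-PRα-KO library, against 776 of 1303 parenchymal barcodes (59.6%, 56.8 to 62.2). In the WT library the numbers were 7 of 607 (1.15%, 0.465 to 2.36) and 367 of 1602 (22.9%, 20.9 to 25.05). Without the limit, the members' share of both astrocyte classes was 14.3% (12.6 to 16.2) in N-PRα-KO and 27.5% (25.6 to 29.4) in WT, so the ratio between the libraries depended on it. With a limit of 10%, the share of both astrocyte classes was 70.1% in N-PRα-KO and 74.9% in WT. The share of filtered cells was then 23.5% in N-PRα-KO and 21.5% in WT, the opposite order of the libraries to that at 25%. Below the limit the members had a median of 9.54% mitochondrial UMIs in N-PRα-KO (quartiles 8.07 and 11.6) and 8.91% in WT (7.44 and 10.5), where parenchymal astrocytes had 18.0% and 16.7%.

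**Figure D2:**
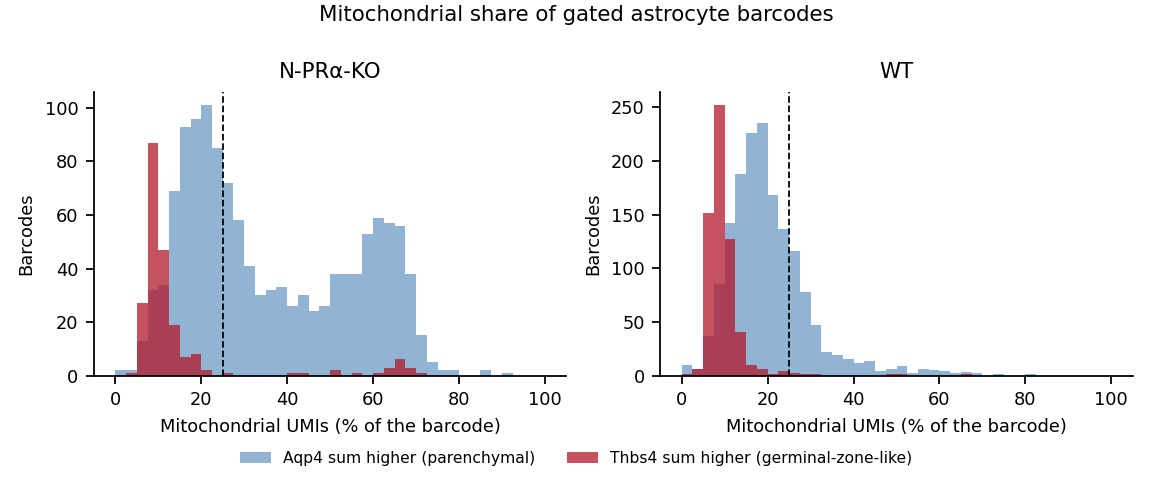
Number of barcodes (vertical axis) by their share of mitochondrial UMIs in percent (horizontal axis, bins of 2.5) for barcodes that met the astrocyte gates, germinal-zone-like in red and parenchymal in blue, in each library. The dashed line is the limit of 25%, which 20 and 7 germinal-zone-like barcodes exceeded, against 776 and 367 parenchymal barcodes.

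Measured against parenchymal astrocytes of the same library, the members had less RNA of genes of transmitter uptake, potassium handling and lipid metabolism. Genes of germinal zones went both ways. Forebrain patterning factors were higher in both libraries in 11 of 14, beside 63.3% of all genes. Because the rule split 1 pool of astrocytes on values of the same cells, this contrast is a description. Of the 6397 genes that reached 20 CPM in a class of each library, 508 (7.94%) were at least 2-fold higher in the members in both libraries and 256 (4.0%) at least 2-fold lower. Taken 1 library at a time, 14.8% were at least 2-fold higher and 5.69% lower in N-PRα-KO, and 11.0% higher and 5.3% lower in WT. Only 1 gene, Ckap2l (named after its values were seen), was at least 2-fold apart in opposite directions (0.0156%). The median log2 ratio was 0.32 in each library, and centred on that median the counts were 281 higher and 399 lower. Without centring, a limit of 10% mitochondrial UMIs gave 58 higher and 103 lower, so both the number and the balance of these genes depended on the limit. Across genes, the log2 ratios of the libraries had a Pearson r of 0.84, where genes are not independent replicates.

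**Figure D3:**
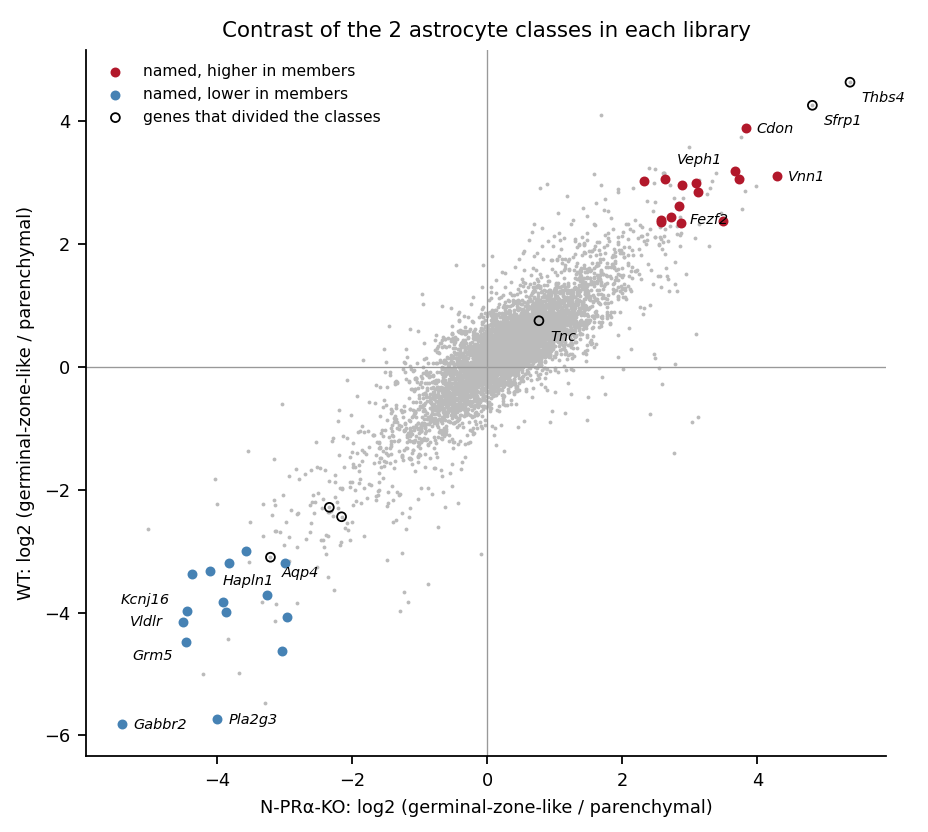
Log2 ratio of germinal-zone-like over parenchymal astrocytes for each gene that reached 20 CPM, in the N-PRα-KO library (horizontal axis) and the WT library (vertical axis). The genes named by the ranking rule are coloured, and open circles mark the 6 genes whose sums divided the classes. Most genes lie along the diagonal, so a gene higher in the members of 1 library tended to be higher in those of the other.

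Among genes outside the rule at 50 CPM or more in a class of each library, 15 were named for the largest excess in the members. They were led by Cdon, a co-receptor of Hedgehog signalling. Its level was 67.9 (52.2 to 86.9) CPM in N-PRα-KO members against 4.78 CPM in parenchymal astrocytes, and 79.9 (67.8 to 93.5) against 5.42 CPM in WT. That was a log2 ratio of 3.83 (3.04 to 4.69) in N-PRα-KO and 3.88 (3.31 to 4.50) in WT, an almost equal excess. Cells of the neuronal lineage reached 70.4 and 50.8 CPM of Cdon, so the excess held within astrocytes. Veph1, which encodes a pleckstrin homology protein first described in the ventricular zone, was at 89.5 against 7.04 CPM and at 115 against 12.6 CPM. Outside the members it was highest in parenchymal and ependymal cells, at 6.89 and 8.60 CPM in the latter. Tmem132b, a transmembrane protein gene, was more abundant, at 501 against 38.0 and 767 against 92.5 CPM. It was not confined to these cells, since oligodendrocyte precursors had 363 and 419 CPM.

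Others of the 15 belonged to transcription and to cell surface and matrix. Plagl1, an imprinted zinc finger factor, had log2 ratios of 2.88 in N-PRα-KO and 2.95 in WT, and Fezf2, a factor of dorsal forebrain progenitors, 2.83 and 2.62. Tox3, an HMG-box factor, stood at 2.87 and 2.34. At the surface, the planar polarity cadherin Celsr1 was at 3.50 and 2.37 and the protocadherin Pcdh8 at 2.73 and 2.43. Matrix genes included the collagen chain Col4a4 (3.11 and 2.84) and the netrin Ntn4 (2.57 and 2.35), the latter at 149 CPM in N-PRα-KO members and 637 CPM in N-PRα-KO mural cells. The remaining members of the group were Vnn1, which encodes a pantetheinase, Pter, the Wnt pathway gene Dixdc1, the oxygen-sensing prolyl hydroxylase Egln3 and the transporter Abca8a, with log2 ratios between 2.33 and 4.28.

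Receptors and channels led the 15 genes with the largest deficit among genes at the same 50 CPM limit. Gabbr2, a subunit of the metabotropic GABA receptor, was at 7.54 CPM in N-PRα-KO members, from 7 UMIs, against 319 CPM in parenchymal astrocytes. In WT it was at 6.19 against 349 CPM. The glutamate receptor gene Grm5 had 1 UMI in all N-PRα-KO and 21 UMIs in all WT members, and its parenchymal levels were 70.9 and 242 CPM. Kcnj16, an inward rectifier potassium channel, had log2 ratios of -4.44 (-5.50 to -3.55) and -3.97 (-4.62 to -3.39). Hapln1, a link protein of hyaluronan matrix, was at 24.8 against 427 CPM and 79.4 against 798 CPM. S100b, a calcium-binding protein of mature astrocytes, was at 18.3 against 259 and 7.22 against 66.3 CPM. The other 10 were the lipoprotein receptor Vldlr, the phospholipase Pla2g3, the growth factor Hbegf, Fndc5, the glutamate receptor subunit Grin3a, the retinaldehyde dehydrogenase Aldh1a1, the BMP antagonist Chrdl1, the creatine synthesis enzyme Gatm, Btbd17 and Eps8. Their log2 ratios lay between -5.74 (Pla2g3, WT) and -2.96 (Eps8, N-PRα-KO). The first rests on 3 UMIs in all WT members, the count to which lower counts were set for ratios. Vldlr had 2 and Grin3a 4 UMIs in all N-PRα-KO members.

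By gene list, the genes of parenchymal astrocytes were lower almost as a block. Of 28 measured outside the rule, 25 were lower in both libraries and 1 was higher, where 21.7% of all genes were lower and 63.3% higher, and the medians were -1.43 in N-PRα-KO and -1.59 in WT. The gene higher in both was the tight junction gene Cldn10, at 0.24 and 0.05. Transporters, channels and receptors for transmitters, potassium and water were lower in 13 of 15, with medians of -1.54 and -1.24. Among them the potassium channel Kcnj10 was at 285 against 760.2 CPM and 291 against 697 CPM. Glul, glutamine synthetase, had log2 ratios of -0.19 in N-PRα-KO and -1.07 in WT. Matrix genes outside the rule were lower in 15 of 21, with medians of -0.61 and -0.53.

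Lipid genes followed the same direction in 17 of 22, beside 21.7% of all genes, with medians of -0.97 and -0.95. Apoe, the main apolipoprotein of astrocytes, was at 3839 against 7735 CPM and 1695 against 3378 CPM. The desaturase Scd1 had log2 ratios of -2.03 and -1.88. Clu, another apolipoprotein, was among the 4 that were higher in both, at 0.49 and 0.42.

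Genes with germinal zone or neural stem cell annotation went both ways. Of 30 measured outside the rule, 18 were higher in both libraries, a share close to the 63.3% of all genes. The 11 lower in both were a larger share than the 21.7% of all genes. Their medians were 0.60 and 0.58. At least 2-fold higher were 8, beside 7.94% of all genes, and at least 2-fold lower were 6, beside 4.0%. Igfbp5, which binds insulin-like growth factors, had the highest level among those at least 2-fold higher. It was at 3106 (2994 to 3222) CPM against 475 CPM in N-PRα-KO and at 3678 (3593 to 3764) against 750.4 CPM in WT. Id4, an inhibitor of basic helix-loop-helix factors, was at 1328 against 419.7 and 1661 against 609 CPM, and the filament gene Nes at 107 against 30.7 and 88.2 against 21.3 CPM. The intermediate filament genes Gfap and Vim were higher by less, with log2 ratios of 0.55 and 0.56 for Gfap and 0.95 and 0.99 for Vim. Fabp7, a fatty acid binding protein of radial glia, was lower, at -1.19 and -1.12, as were the growth factor receptor antagonist Lrig1 (-2.69 and -2.81), the adhesion molecule Vcam1 (-1.86 and -1.53) and the homeobox gene Dbx2 (-2.04 and -2.81).

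Transcription factors that pattern the forebrain were higher in both libraries in 11 of 14 and lower in both in none, beside the 63.3% and 21.7% of all genes. Their medians were 0.61 and 0.62, where the median over all genes was 0.32 in each library. Pax6, a factor of cortical progenitors, was at 281 (248 to 318) against 56.6 CPM in N-PRα-KO and 423 (394 to 453) against 102 CPM in WT. Zbtb20, a zinc finger factor of hippocampal and cortical progenitors, was at 2166 against 506 and 2691 against 700.2 CPM. Tfap2c, a factor of basal progenitors, had log2 ratios of 3.76 and 3.73. The 3 that differed in sign between libraries were Zic1, Zic5 and Nr2f2.

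Genes of activated progenitors were higher in 9 of 12 and lower in 3, near the 63.3% and 21.7% of all genes, with medians of 1.16 and 0.75. Mycn, a growth-promoting factor of neural progenitors, had log2 ratios of 3.77 in N-PRα-KO and 3.07 in WT, and the cyclin gene Ccnd2 1.15 and 0.41. Egfr, the receptor for epidermal growth factor, was not among the higher genes, at 97.0 against 109 and 92.8 against 178 CPM. In signalling pathways, the Hedgehog target Gli1 (2.26 and 2.30), the co-receptor Gas1 (1.71 and 1.12) and the receptor Notch2 (1.89 and 1.72) were higher, and the receptor Fgfr3 (-2.33 and -2.36) and the Notch ligand-like Dner (-1.80 and -1.41) lower. Of the Wnt list outside the rule, 8 of 13 were higher in both libraries, a share no higher than the 63.3% of all genes, among them the antagonist Dkk3 (1.37 and 0.74) and the receptor Fzd8 (1.41 and 1.30).

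Division genes were the list in which the 2 libraries differed most in this contrast. Their median log2 ratio of members over parenchymal astrocytes was 2.49 in N-PRα-KO and 0.04 in WT, and 6 of 11 were higher in both and 5 differed in sign. Top2a, a topoisomerase of dividing cells, was at 179 against 26.2 CPM in N-PRα-KO and 84.0 against 81.9 CPM in WT. The level of N-PRα-KO parenchymal astrocytes was the lowest of the 4. A member with 3 or more UMIs of the list was found in 19 of 198 N-PRα-KO (9.60%) and 59 of 600 WT cells (9.83%), and in 6.15% and 5.38% after thinning, against 1.14% and 4.81% of parenchymal astrocytes. That class is a range of a count, with 22 and 71 members at 2 to 4 UMIs. In microglia the thinned shares were 6.75% and 23.2%, and the part of free RNA in these counts was not tested. Immediate early genes also differed between the libraries in this contrast, with medians of -0.08 in N-PRα-KO and 0.99 in WT.

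Within the members, cells with a Thbs4 UMI were set beside cells with Sfrp1 but no Thbs4 UMI, a division made after the values were seen and therefore given without weight on any one gene. The groups held 158 and 37 N-PRα-KO members at median depths of 4166 and 4399 UMIs, and 281 and 288 WT members at 2862 and 2700.0 UMIs. Gfap was higher in the cells with Thbs4, at 2795 against 1324 CPM in N-PRα-KO and 1426 against 1009 CPM in WT. Igfbp5 was also higher, by 0.36 (0.21 to 0.50) and 0.28 (0.21 to 0.35) on the log2 scale, and Slc1a2, the main glutamate transporter, by 0.79 and 0.18. Egfr and Ccnd2 went the other way in both libraries. Egfr was at 74.2 CPM with and 156 CPM without Thbs4 in N-PRα-KO, and at 56.4 and 126 CPM in WT, and Ccnd2 at 639 and 1023 and at 862 and 1349 CPM. The division gene Top2a had log2 ratios of -2.21 (-2.69 to -1.74) and -1.50 (-2.06 to -0.97). Pax6 was at 0.02 (-0.42 to 0.49) and 0.09 (-0.11 to 0.30), and Nes at -0.36 (-1.05 to 0.37) and 0.03 (-0.42 to 0.49). These counting intervals held both signs, so no direction was read for either gene. They leave out variation between cells.

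**Figure D4:**
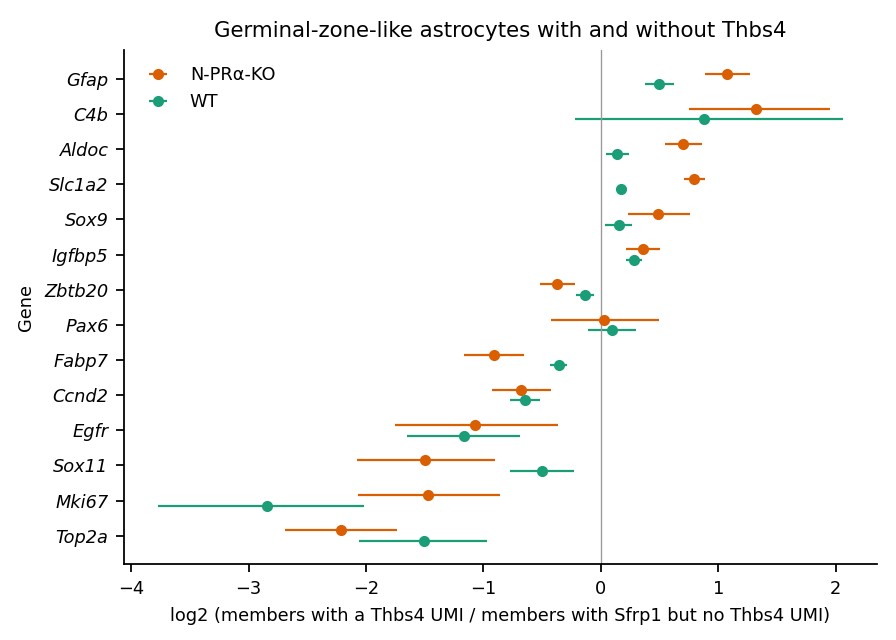
Log2 ratio (horizontal axis) of summed CPM in members with a Thbs4 UMI over members with a Sfrp1 but no Thbs4 UMI, for 14 genes (vertical axis) in the N-PRα-KO (orange, 158 over 37 cells) and WT library (green, 281 over 288 cells), with 95% counting intervals. Gfap and Igfbp5 lie to the right of 0 in both libraries, and Egfr, Ccnd2, Mki67 and Top2a to the left.

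Between the libraries, N-PRα-KO members had more RNA of glucocorticoid-responsive, metallothionein and reactive astrocyte genes than WT members. They had less of Fabp7, Tnc and the immediate early gene Fos. Of the 7864 genes that reached 20 CPM in the members of a library, 1224 (15.6%) were at least 2-fold higher and 724 (9.21%) at least 2-fold lower in N-PRα-KO, with a median log2 ratio of -0.07. The ratio moved with base composition, with a Spearman rho of 0.59 across 7836 genes against the GC percentage near the 3' end of the transcript (its final 500 bases), and its median was -0.55 over the 20% of genes poorest in GC and 0.91 over the 20% richest. With that trend removed, 822 (10.5%) were higher and 465 (5.93%) lower, and each GC-corrected value below is named as such. The members and parenchymal astrocytes compare the same 2 libraries, so their values stand side by side without a count of shared genes.

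Arl4d, a small GTPase of the ARF family, led the 12 genes named for the largest excess in N-PRα-KO. These were ranked among genes at 50 CPM or more and not over 3 times higher in another class. Arl4d is taken first. It had 164 UMIs (177 CPM) in N-PRα-KO and 8 UMIs (4.12 CPM) in WT members, where parenchymal astrocytes had 26.7 and 3.25 CPM. Cells of the neuronal lineage had 203 and 201 CPM of it, with no such gap. Txnip, a thioredoxin inhibitor induced by glucose and glucocorticoids, was at 985 (922 to 1051) CPM in N-PRα-KO and 35.6 (27.7 to 45.0) CPM in WT members. Its log2 ratio was 4.79 (4.44 to 5.17) in the members, 4.77 GC-corrected, and 4.74 in parenchymal astrocytes. The gene was also higher in the N-PRα-KO library in microglia, at 632 and 309 CPM, a smaller gap. C4b, a complement component made by reactive and ageing astrocytes, was at 316 (281 to 354) CPM from 293 UMIs against 17.5 (12.1 to 24.5) CPM from 34 UMIs. A C4b UMI was seen in 57.6% of N-PRα-KO and 4.83% of WT members (41.5% and 2.37% thinned), and in 9.63% and 0 of the microglia of the 2 libraries, the 0 among 663 WT cells allowing a share of up to 0.452%.

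Cst3, which encodes the protease inhibitor cystatin C, was the most abundant of the 12, at 13194 CPM in N-PRα-KO and 1115 CPM in WT members. Its log2 ratio was 3.56 in the members, 2.79 GC-corrected and 3.24 in parenchymal astrocytes. The gap was not limited to astrocytes. Among other classes of at least 50 cells, the highest Cst3 level was 11973 CPM in N-PRα-KO and 884 CPM in WT. The respiratory chain subunits Cox4i1 and Uqcr11 had log2 ratios of 3.58 and 3.43, or 2.56 and 2.15 GC-corrected. Their highest levels in those other classes were 486 and 148 CPM in N-PRα-KO, and 63.1 and 7.60 CPM in WT. The others were the noncoding RNA Bc1 (4.43), the brain carnitine palmitoyltransferase Cpt1c (3.98), the kinase Pim3 (3.93), Nsmf (3.604), Yif1b (3.51) and the calcium sensor Stim1 (3.45). Outside astrocytes their highest levels, N-PRα-KO first, were 132 and 11.2 CPM for Bc1, 73.9 and 3.23 for Cpt1c, and 148 and 87.4 for Pim3. They were 44.3 and 15.8 CPM for Nsmf, 42.4 and 18.9 for Yif1b, and 141 and 13.5 for Stim1. All 12 stayed above 2 on the log2 scale after the GC trend was removed.

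At the low end, Fos, an immediate early transcription factor, was at 244 (213 to 277) CPM in N-PRα-KO and 1765 (1706 to 1825) CPM in WT members, a log2 ratio of -2.86 (-3.06 to -2.66), and at -2.23 in parenchymal astrocytes. The gap was not limited to astrocytes, since microglia had 556 and 2148 CPM. Fabp7 was at 644 (594 to 698) CPM in N-PRα-KO and 3378 (3297 to 3461) CPM in WT members, with a UMI in 71.2% and 94.8% of them (56.4% and 91.8% thinned). The share of microglia with a Fabp7 UMI was 12.8% and 25.8%. Its log2 ratio was -2.39 in the members, -2.08 GC-corrected, and -2.32 in parenchymal astrocytes. Pcdh8 and Egln3, both among the genes most in excess over parenchymal astrocytes, were lower in N-PRα-KO members, at 69.0 against 371 CPM and 75.4 against 316 CPM. Those were log2 ratios of -2.43 and -2.06, and parenchymal astrocytes had -2.72 and -2.26, so the drop was not particular to the members. The pentraxin Ptx3 was at 34.5 against 151 CPM and the FGF-binding protein Fgfbp3 at 32.3 against 193 CPM. In parenchymal astrocytes their log2 ratios were -2.54 and -2.58. The remaining 6 were Vstm2a, AF529169, Them4, Coa6, the X-linked Tceal1 and the RNA-binding protein gene Elavl1, with log2 ratios between -2.64 and -1.97.

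The genes of the rule did not differ alike. Thbs4 was higher in N-PRα-KO members by 1.35 on the log2 scale (0.91 GC-corrected), Sfrp1 was lower, at -0.37 (-0.55), and Tnc lower still, at -1.87 (-1.60). Since a cell could enter on any of the 3, these levels describe how the cells were chosen. The Tnc difference was as large in parenchymal astrocytes, at -1.89.

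By list, the largest median was that of metallothioneins and glucocorticoid-responsive genes, at 2.47 on the log2 scale (2.13 GC-corrected), with 12 of 12 higher in N-PRα-KO, where 46.8% of all genes were higher and 53.2% lower. Parenchymal astrocytes gave 2.46 for the same genes. Mt1 was at 3078 against 641 CPM and Mt2, which like it binds zinc and copper, at 766 against 147 CPM. The glucocorticoid-induced transcription factor gene Zbtb16 was at 33.4 against 3.09 CPM, the clock gene Per1 at 147 against 15.98 CPM, and the cell cycle inhibitor Cdkn1a at 79.8 against 6.70 CPM. Mt3, the brain metallothionein, was the exception after correction, at 0.996 as measured and -0.46 GC-corrected.

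Reactive astrocyte genes were higher in N-PRα-KO in 15 of 18, beside 46.8% of all genes. Their median was 1.15 (1.19 GC-corrected, and 0.998 over the 9 not more than 3 times higher in another class). Parenchymal astrocytes gave 1.39 for the same genes. Beside C4b they included Serpina3n, a protease inhibitor of reactive glia, at 33.4 CPM from 31 UMIs against 3.09 CPM from 6 UMIs, and the signalling factor Stat3, at 115 against 40.7 CPM. Gfap was at 2469 (2369 to 2572) CPM in N-PRα-KO and 1236 (1187 to 1286) CPM in WT members, a log2 ratio of 0.998 that was 0.30 GC-corrected. Microglia had 149.6 and 28.1 CPM of Gfap, a gap that moved the same way and whose part in the members' difference was not tested. Vim (-0.38), S100a10 (-0.61) and Ptx3 (-2.13) were the 3 that were lower, and Vim was at 0.05 GC-corrected.

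Genes of parenchymal astrocytes outside the rule were higher in N-PRα-KO in 19 of 25, beside 46.8% of all genes, at a median of 0.93 (0.57 GC-corrected). Aldh1l1, a folate enzyme that marks astrocytes, was at 148 against 13.9 CPM and Fgfr3 at 136 against 14.4 CPM, where the log2 ratios were 3.41 and 3.23 in the members and 2.70 and 3.21 in parenchymal astrocytes. Glycolysis genes were higher in 14 of 17, but their median of 0.74 was 0.19 GC-corrected. Gapdh was at 865 against 129 CPM, and the glucose transporter Slc2a1, abundant in endothelial cells, at 157 against 27.8 CPM. Interferon and MHC class I genes were higher in 7 of 10, at a median of 0.60 (0.67), with the restriction factor Ifitm3 at 221 against 58.8 CPM. For the same genes, parenchymal astrocytes gave medians of 0.72 (parenchymal astrocyte genes), 0.95 (glycolysis) and 0.82 (interferon and MHC class I).

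Immediate early and dissociation-induced genes were lower in N-PRα-KO members in 11 of 17 and higher in 6, beside 53.2% and 46.8% of all genes. Their median was -0.76 (-1.0 GC-corrected), while parenchymal astrocytes gave 0.15. At least 2-fold lower were 8, and 2 were at least 2-fold higher, beside 9.21% and 15.6% of all genes. Only 4 of the 17 were not more than 3 times higher in another class. Beside Fos, the widest gaps were in the heat shock gene Hspa1b, at 31.3 against 242 CPM, and in Egr1, at 117 against 651 CPM. Nfkbia, an inhibitor of NF-kB, and Cebpd were higher instead, at 1.72 and 1.56. Genes of this list respond to dissociation of tissue, and whether handling differed between the libraries is not in the labels.

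Among stem cell and progenitor lists, germinal zone genes outside the rule were split, 16 higher and 15 lower, at a median of 0.04 (0.12 GC-corrected). Activated progenitor genes were lower in 9 of 15, near the 53.2% of all genes that were lower, at a median of -0.57 (-0.18). Notch pathway genes were lower in 12 of 16, at -0.51 (-0.36), among them the ligand Jag1 (-1.44, -0.95 GC-corrected) and the effector Hes5 (-1.20, -2.31). Forebrain patterning factors were lower in 13 of 15, at -0.50, but this median was 0.02 GC-corrected, so its sign depended on the correction. For the same genes, parenchymal astrocytes gave medians of -0.08 (germinal zone), -0.997 (activated progenitor), -0.38 (Notch) and -0.47 (patterning factors). Division genes were higher in 13 of 14, beside 46.8% of all genes, at 0.73 (1.03), where parenchymal astrocytes gave -1.87. Over the 7 not more than 3 times higher in another class the median was 0.72. These sums came from few cells. In N-PRα-KO, Top2a was at 1134 CPM in the 19 members with 3 or more division UMIs and at 13.9 CPM in the other 179. The share of such members was 9.60% in N-PRα-KO and 9.83% in WT. Over all 20 lists, 10 had a median above 0.

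**Figure D5:**
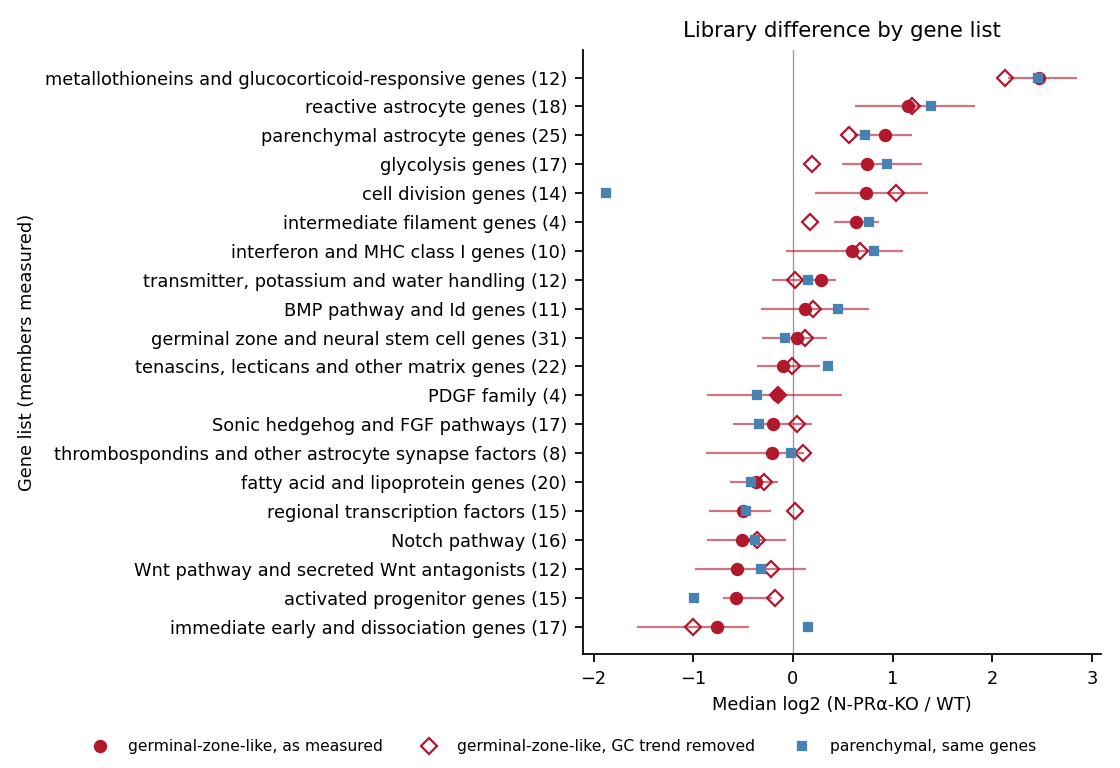
Median log2 ratio between the libraries (N-PRα-KO members divided by WT members, horizontal axis) for 20 gene lists (vertical axis, with the number of members measured) in germinal-zone-like astrocytes as measured (filled circles), with the GC trend removed (open diamonds), and in parenchymal astrocytes for the same genes (squares). Red lines run from the median lower to the median upper bound of the genes' counting intervals. Division and immediate early genes are the lists whose median lies on opposite sides of 0 in the 2 astrocyte classes by the widest gaps.

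Markers of other cell classes were present in the members at low levels, and most stood higher in N-PRα-KO. All 8 microglia and macrophage markers had UMIs in both libraries and together reached 786 CPM in N-PRα-KO and 154 CPM in WT members, against 23482 and 17271 CPM in microglia. C1qb, a complement component of microglia, had a UMI in 40.4% of N-PRα-KO and 2.67% of WT members, and in 51.6% and 3.81% of parenchymal astrocytes. Endothelial markers summed to 375 and 33.0 CPM, mural markers to 693 and 157 CPM, fibroblast markers to 694 and 288 CPM, ependymal markers to 343 and 84.6 CPM, and choroid plexus markers, nearly all from the transthyretin gene Ttr, to 1703 and 259.9 CPM. Myelin markers summed to 240.3 and 36.1 CPM. Oligodendrocyte precursor and neuronal markers were lower in N-PRα-KO, at 143 against 355 CPM and 70.1 against 111 CPM. The rule itself capped most ependymal, fibroblast and oligodendrocyte precursor markers in each member. The low sums of those classes were thus partly set by the selection and do not measure purity. Defining markers at 0 were Opalin, Sp9 and Kl in N-PRα-KO and Folr1 and Clic6 in WT members. The part of other cells' RNA in the differences between the libraries was not tested beyond leaving out genes more than 3 times higher in another class. That filter used only classes of 50 cells or more. It did not cover choroid plexus cells (45 in N-PRα-KO and 1 in WT) or the 9 N-PRα-KO myelinating oligodendrocytes. Pdgfra, the gene targeted in the neural lineage and the target of the sort, had a UMI in 9.09% of N-PRα-KO and 25.8% of WT members, and 10.4% and 27.1% of microglia had one. In thinned cells the shares were 2.56% and 18.9% in the members and 3.22% and 18.5% in microglia, so no Pdgfra expression was read from the members' shares. The labels do not say which exons are floxed, so this level does not check the allele.

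A few members carried enough of another class's RNA to stand apart. In N-PRα-KO, 3 members had at least 0.5% of their UMIs from microglia markers, 3 from endothelial, 3 from choroid plexus, 2 from mural and 1 from myelin markers. In WT, 3 members reached that share for choroid plexus, 3 for microglia, 2 for oligodendrocyte precursor and 1 for neuronal markers, and 1 member held 11.7% of its UMIs in choroid plexus markers, 190.0 of the 504 such UMIs in all WT members. With all these members left out, the named log2 ratios of C4b, Txnip and Fabp7 between the libraries were 4.18, 4.89 and -2.34.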

How the data were processed

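The data were single-cell RNA-seq counts from 2 libraries of CD140a-sorted cells of mouse cerebral cortex, 1 of N-PRα-KO and 1 of WT mice. The authors deposited raw counts of UMIs per cell and gene with no normalization, written by BD Rhapsody's WTA Analysis Pipeline (1.10 in N-PRα-KO, 1.10.1 in WT) on GRCm38 with GENCODE M19, per the file headers. GRCm38 and mm10 are both named as builds by the submitters' processing notes, and no aligner is named there. The pipeline had already chosen the barcodes it took for cells, 8336 and 11438, so barcodes it did not take for cells were not analysed here.

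UMIs of the chosen cells were summed per class and library and scaled to CPM. Levels carry exact Poisson intervals, shares exact Clopper-Pearson intervals and log2 ratios exact conditional intervals, all at 95% and for counting error only. Counts under 3 were set to 3 for ratios, and 3 counts set the limit that a count of 0 allows. The tables were joined over all gene symbols, with a gene in 1 table only set to 0 in the other, and 21599 genes were in both. Genes at 20 CPM or more were counted. Other classes were gated on marker sums of at least 0.5% of a cell's UMIs and at least 3 times those of any other class. A gene was called higher in another class only against classes of at least 50 cells. Cells were thinned to 2000 UMIs with shallower cells left out. The GC trend was a lowess fit (span 0.3) on the last 500 bases of each gene's longest transcript in GENCODE M21, on the same build. Doublets were called with Scrublet in scanpy 1.11.5 and kept in the main values. Tools were numpy 2.4.6, pandas 2.3.3, scipy 1.17.1, statsmodels 0.14.6 and matplotlib 3.10.9, and the interval code was tested on simulated data.

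The rule for the cells, the gene lists and the tests were chosen with earlier results of these data known. Genes were named as follows: all genes of the cell rule; the 15 highest and 15 lowest against parenchymal astrocytes at 50 CPM or more in both libraries, ranked by the smaller ratio; the 12 highest and 12 lowest between the libraries at 50 CPM or more and not over 3 times higher in another class; the 4 largest differences of each list; and markers of other classes. Mitochondrial, ribosomal, haemoglobin and predicted genes, Xist, Tsix and Y-linked genes were left out of the ranking. Other listed genes, chosen after their values were seen, are named as examples of their list's direction. Alternatives changed the mitochondrial limit, the gene minimum, doublet calls, the margin of the rule, depth, the weight of cells, scaling, the level filter, GC correction and genes higher elsewhere. Some results are not reported here.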

Additional observations from a re-analysis of the deposited data

Results flagged for a closer look

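Some genes differed from parenchymal astrocytes in opposite directions in the 2 libraries. With 1 library per genotype the difference was not tested. The division genes Ccnb1, Prc1 and Ube2c were higher in the members in N-PRα-KO and lower in WT, with log2 ratios of 3.04 and -0.90 for Ccnb1, 2.41 and -0.77 for Prc1, and 3.12 and -0.82 for Ube2c. Cst3 was at 0.10 and -0.22, the myelin gene Mbp at 1.14 and -0.76, the heat shock gene Hspa1b at -0.96 and 1.19, and the proteoglycan gene Spock2 at -0.54 and 0.43, N-PRα-KO first. Of the 223 myelin marker UMIs in N-PRα-KO members, 115 were in 1 member.

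Barcodes above the mitochondrial limit also met the rest of the rule, 20 in N-PRα-KO and 7 in WT. They enter no value above except those given without the limit.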

How the results depend on the processing

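With 1 library per genotype nothing could be left out in turn, and no paired analysis was possible because each group holds 1 library and no result comes from a test. Of the values outside single genes and lists, 107 stayed within their counting interval or within 1.5 times under the alternatives and 39 moved. The cause of each move was not tested where it is not given by the alternative's own construction.

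At most 10% mitochondrial UMIs gave members as 23.5% (N-PRα-KO) and 21.5% (WT) of filtered cells and 70.1% and 74.9% of both astrocyte classes, 94.2% of WT members with Sfrp1 and 7.06% with 3 division UMIs, and 58 genes higher and 103 lower than in parenchymal astrocytes. Without the limit (an alternative chosen after seeing the data) the shares were 3.18% of N-PRα-KO filtered cells, 14.3% and 27.5% of astrocytes, and 73.4% of N-PRα-KO members with Thbs4. At least 1000 genes gave 31.3% and 35.9% of astrocytes. A margin of 3 UMIs gave 3.86% and 4.28% of filtered cells, 23.5% and 25.9% of astrocytes, and 53.6% of WT members with Thbs4 and 96.3% with Sfrp1.

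Thinned cells gave, in N-PRα-KO, 70.3% of members with Thbs4, 78.5% with Sfrp1 and 25.6% with Tnc, and in WT 41.1%, 87.1% and 59.6%, with 5.38% of WT members at 3 division UMIs. The rule applied to thinned cells gave 3.90% and 5.24% of filtered cells.

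Against parenchymal astrocytes, centring (chosen after seeing the data) gave 281 higher and 399 lower genes, 100 CPM or more 116 and 117, and any UMI 3194 and 418. Between the libraries, 100 CPM gave 269 higher and 213 lower, any UMI 6175 higher, and removal of the GC trend 465 lower. That removal also reversed the median of forebrain patterning factors (regional transcription factors), to 0.0210. Log2 ratios of named genes against parenchymal astrocytes moved in 86 cases and did not in 654, those between the libraries in 14 and 312, and list medians moved in 15 and did not in 224.

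Depth limits single-cell shares most in WT, where 135 of 600 members had under 2000 UMIs. The other alternatives chosen after seeing the data were CPM without mitochondrial genes, members with a Thbs4 or Sfrp1 UMI only, and members without those rich in another class's markers.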
